A study of Mus musculus with 2 samples.

Results

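The genes of the Rab GTPase family were examined for binding of IRF4 in CH12.LX, a line of mouse B-cell lymphoma. A member was any protein-coding gene of RefSeq GRCm38 on chromosomes 1 to 19 or X whose symbol is Rab followed by a number and at most 1 letter, which gave 59 of 21631 genes. IRF4, an interferon regulatory factor needed for plasma cell formation, was mapped by chromatin immunoprecipitation and sequencing (ChIP-seq) with an antibody to IRF4. CH12.LX is 1 immortalized line from the strain B10.H-2aH-4bp/Wts, the cells carry no labelled treatment or genetic change, and 2 biological replicates form the only group. The labels do not say whether the replicates were separate cultures, and a control experiment that they name as possible was not analysed here. The files hold peaks and no expression values, so the cell type was taken from the labels and could not be checked against markers. No comparison between conditions was possible, and every value below is a description of the members beside all genes, with no test.

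Rab proteins are small GTPases that mark the membranes of a cell. Exchange factors load them with GTP, in which state they sit on a membrane and recruit effectors such as tethers and motors, and GTPase-activating proteins switch them off. A lipid added by a transferase holds them on the membrane, and a dissociation inhibitor takes them back into the cytosol. In B cells this traffic carries the antigen receptor into endosomes, delivers peptides on MHC class II to the surface and, in plasma cells, moves antibody out of the cell.

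A summit is the position of highest signal in a peak, and a gene's window is its body plus 10 kb at either end. Summits came from the optimal list, a set of 44058 peaks on the mouse build mm10 that the authors derived from the lists of the replicates. A stricter conservative list of 35879 peaks had a summit within 100 bp of 111 of the 163 member summits below (68.1%, against 72.3% of the whole optimal list). Counted by itself, the conservative list had 133 summits in the members' windows. The signal is the authors' own value for a peak, on a scale that is not stated, and it orders peaks within 1 list only. Of the 59 Rab genes, 50 held a summit in their window (84.7%), against 62.3% of all genes. The 163 summits of the family were all distinct, and gave 4.95 summits per 100 kb of window against 2.96 over all genes. The median window was 43.2 kb for the members and 37.3 kb for all genes. The density, however, is total summits (163 and 43889) over total window (3294 kb and about 1481000 kb), so long windows weigh most in it. The median gene had 2 summits among the members and 1 over all genes. The members differed from all genes in the number of summits and not in their height: the strongest summit of a gene with any had a median signal of 55.5 in the members and 58.3 over all genes.

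Sequence is shown first for the summits on which the description turns. These are summits in introns of Rab37 and Rab7b, where strong summits lie close together, some further windows with the letters of an ETS-IRF or IRF element, and the strongest summits of Rab43, Rab30 and Rab22a for contrast. Each window is 101 bases of mouse mm9 (NCBIM37) centred on a summit of the authors' mm9 list, read 5′ to 3′ on the reference strand, and none overlaps an exon. Capitals mark any match to 12 searched sequences: ETS-IRF (GGAA, 2 bases, then GAAA), tandem IRF (GAAA, 2 bases, then GAAA), both AP-1-IRF composites, AP-1 (TGACTCA or TGAGTCA), PU.1 (GAGGAAGT), octamer (ATGCAAAT), RUNX (TGTGGTT), NF-kB (GGGA, 2 bases, then TTCC), E-box (CAGCTG), and the words GGAAGTGA and AGAAGTGA. Both strands were searched, so TTTC stands for GAAA on the other strand, and the PU.1, GGAAGTGA and ETS-IRF letters can share bases.
Rab37 strongest summit, chr11:114968094-114968194: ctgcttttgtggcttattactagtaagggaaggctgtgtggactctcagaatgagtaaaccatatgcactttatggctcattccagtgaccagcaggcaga
Rab37 second summit, chr11:114966622-114966722: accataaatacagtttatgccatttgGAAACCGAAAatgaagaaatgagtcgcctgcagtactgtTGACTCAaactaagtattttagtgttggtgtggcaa
Rab37 summit with ETS-IRF letters, chr11:114961680-114961780: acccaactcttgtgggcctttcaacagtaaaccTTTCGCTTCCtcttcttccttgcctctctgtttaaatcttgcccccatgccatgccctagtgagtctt
Rab7b summit nearest the start, chr1:133595501-133595601: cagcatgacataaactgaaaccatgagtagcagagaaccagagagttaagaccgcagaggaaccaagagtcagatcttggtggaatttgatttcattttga
Rab7b middle summit, chr1:133597104-133597204: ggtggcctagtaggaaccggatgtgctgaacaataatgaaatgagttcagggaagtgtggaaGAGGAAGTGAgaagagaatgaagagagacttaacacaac
Rab7b summit farthest from the start, chr1:133599199-133599299: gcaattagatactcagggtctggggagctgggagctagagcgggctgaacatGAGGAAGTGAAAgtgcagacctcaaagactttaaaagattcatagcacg
Rab14 upstream summit, chr2:35064935-35065035: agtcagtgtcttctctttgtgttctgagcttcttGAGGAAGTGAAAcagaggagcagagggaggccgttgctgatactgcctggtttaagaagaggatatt
Rab20 intron summit, chr8:11463654-11463754: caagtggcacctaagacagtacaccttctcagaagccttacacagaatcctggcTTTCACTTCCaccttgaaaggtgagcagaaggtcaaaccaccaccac
Rab7 intron summit, chr6:87983640-87983740: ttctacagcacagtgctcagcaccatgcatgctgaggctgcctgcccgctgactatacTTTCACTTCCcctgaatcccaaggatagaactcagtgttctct
Rab5c intron summit, chr11:100596916-100597016: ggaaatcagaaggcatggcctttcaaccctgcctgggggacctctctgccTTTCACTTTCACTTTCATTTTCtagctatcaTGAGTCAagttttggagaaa
Rab43 strongest summit, chr6:87759262-87759362: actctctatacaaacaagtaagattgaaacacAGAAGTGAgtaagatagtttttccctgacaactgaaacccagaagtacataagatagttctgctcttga
Rab30 strongest summit, chr7:99969050-99969150: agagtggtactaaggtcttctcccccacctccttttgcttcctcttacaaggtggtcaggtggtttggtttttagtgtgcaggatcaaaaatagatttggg
Rab22a strongest summit, chr2:173504865-173504965: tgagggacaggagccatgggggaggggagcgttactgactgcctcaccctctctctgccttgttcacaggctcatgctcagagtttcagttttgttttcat

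In the Rab7b window farthest from the start, 1 run of capitals holds the PU.1, GGAAGTGA and ETS-IRF letters together, and the Rab14 window holds the same run. The middle Rab7b window has the PU.1 letters and GGAAGTGA but no GAAA at the spacing of the composite element. The second Rab37 window holds a tandem IRF match and, apart from it, an AP-1 match. The Rab5c window carries several IRF letters in a row and an AP-1 match near them. The strongest Rab37, Rab30 and Rab22a windows and the first Rab7b window hold none of the 12 sequences, which says only that these letters are not in those 101 bases.

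Over the mm9 list, whose 27671 peaks were made from both replicates together, 42 of the 59 members held a summit in their window (71.2%), against 46.9% of 22350 GENCODE genes. These were 99 distinct summits, of which 52 lay in introns, 33 between genes, 9 in untranslated and 3 in coding parts of exons and 2 in other exons. ETS-IRF letters lay within 50 bp of 9 of the 99 summits (9.09%), against 8.68% of all summits of the list and 0.918% of windows 300 bp to one side. In the same side windows of the members, ETS-IRF, tandem IRF and AP-1 letters were found 0 times. Tandem IRF letters lay in 1.6% and AP-1 letters in 1.68% of all side windows. At such low shares, 0 among 99 windows says little about the members. The 9 were at Rab37, Rab7b, Rab7, Rab8b, Rab13, Rab14, Rab5b and, at a pair of summits, Rab20. The share at the Rab genes is thus close to that of the list as a whole.

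Tandem IRF letters were present at 7 member summits (7.07%, against 5.79% over the list) and AP-1 letters at 10 (10.1% against 13.9%). The AP-1-IRF composites were searched as GAAA directly followed by an AP-1 site and as TTTC, 4 bases and an AP-1 site. Neither was found at a member summit, and over the list they lay at 0.994% and 0.925%. PU.1 letters lay at 6 summits (6.06% against 4.93%), RUNX letters at 4 (4.04% against 5.79%), the E-box at 8 (8.08% against 8.72%), the octamer at 2 (2.02% against 2.61%) and NF-kB letters at none (1.61% over the list). In the members' side windows the E-box lay in 9, against 8 at the summits, PU.1 letters lay in 3 and RUNX letters in 2. Over all side windows of the list the shares were 4.62%, 0.593% and 2.27%. Over the list the E-box was thus commoner at summits than beside them. The word GGAAGTGA lay at 12 summits (12.1% against 6.81%), and AGAAGTGA at 2 (2.02% against 2.83%). Both words were chosen with results of these data known, so the difference for GGAAGTGA is given as a value and supports nothing. At least 1 of the other 10 sequences was present at 38 member summits (38.4%) and at 43.4% of all.

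**Figure D1:**
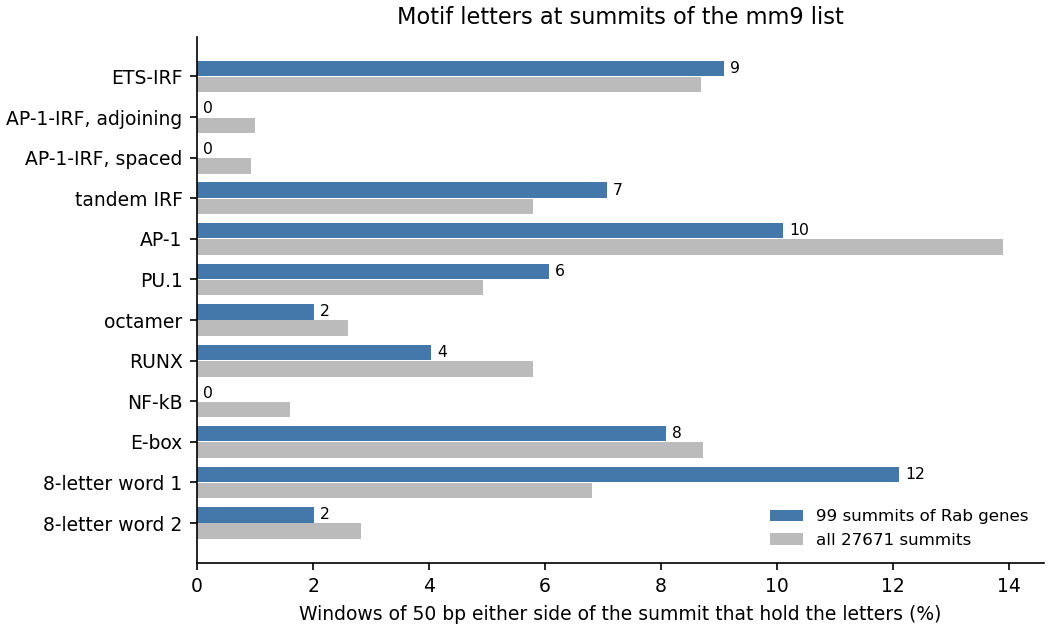
Percent of windows of 101 bp that hold each searched sequence, for the 99 summits of Rab genes in the mm9 list (blue, with the number of summits beside the bar) and for all 27671 summits (grey). The ETS-IRF bars are close (9.09% and 8.68%), AP-1 is lower at the members (10.1% and 13.9%), and 8-letter word 1, which is GGAAGTGA, is higher (12.1% and 6.81%), while word 2 is AGAAGTGA.

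Signals of both replicates at the same summit give the error behind each value. A replicate's own peak within 100 bp was found in both replicates for 128 of the 163 member summits (78.5%, against 85.4% over the whole list), in replicate 1 alone for 10 and in replicate 2 alone for 25. Replicate 2 had the higher signal at 107 of the 128 and replicate 1 at 21. The median log2 ratio of replicate 2 to replicate 1 was 0.56 (SD 0.63 over summits), against 0.53 over all matched summits, so the same offset ran through the whole list. Each pair of values below carries it. Among member summits with a signal at or over the median of the list, 78 of 82 were matched in both (95.1%), and among those below it 50 of 81 (61.7%).

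**Figure D2:**
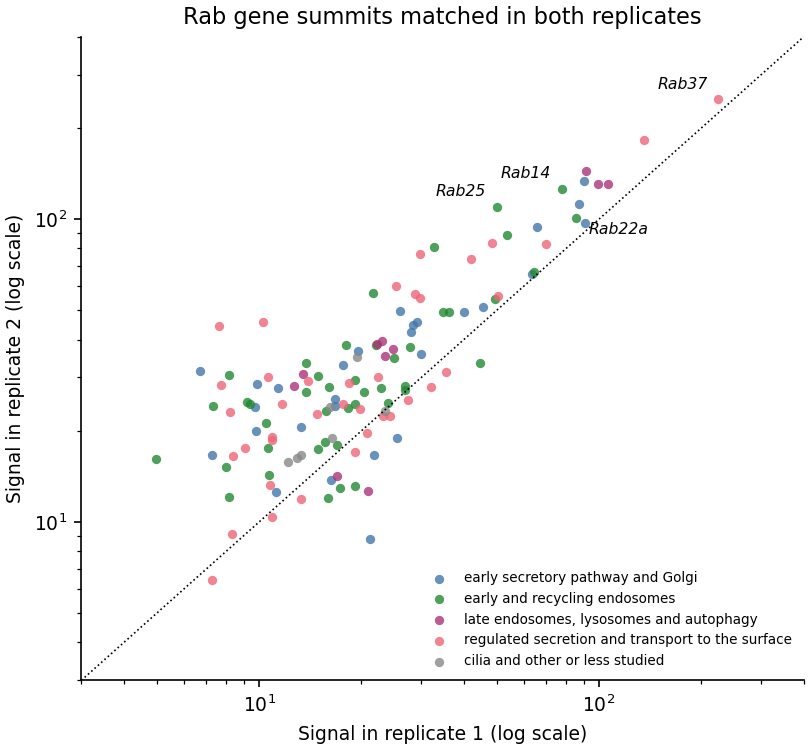
Signal in replicate 1 against replicate 2 for the 128 Rab gene summits matched within 100 bp in both, on log axes, coloured by role of the Rab, with the line of equal signal dotted. Most points (107) lie above the line, and the strongest summits, such as that of Rab37 (224 and 249), are high in both.

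Counted in each replicate alone, with the 44058 strongest peaks of its relaxed list, 44 members held a summit in replicate 1 and 50 in replicate 2, and all 44 held one in both. Replicate 1 gave 163 summits in member windows and replicate 2 gave 166. The share in replicate 1 was 74.6%, against 62.3% of all genes counted in the same way, and in replicate 2 it was 84.7% against 63.7%. The excess of the family over all genes was thus smaller in replicate 1.

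**Figure D3:**
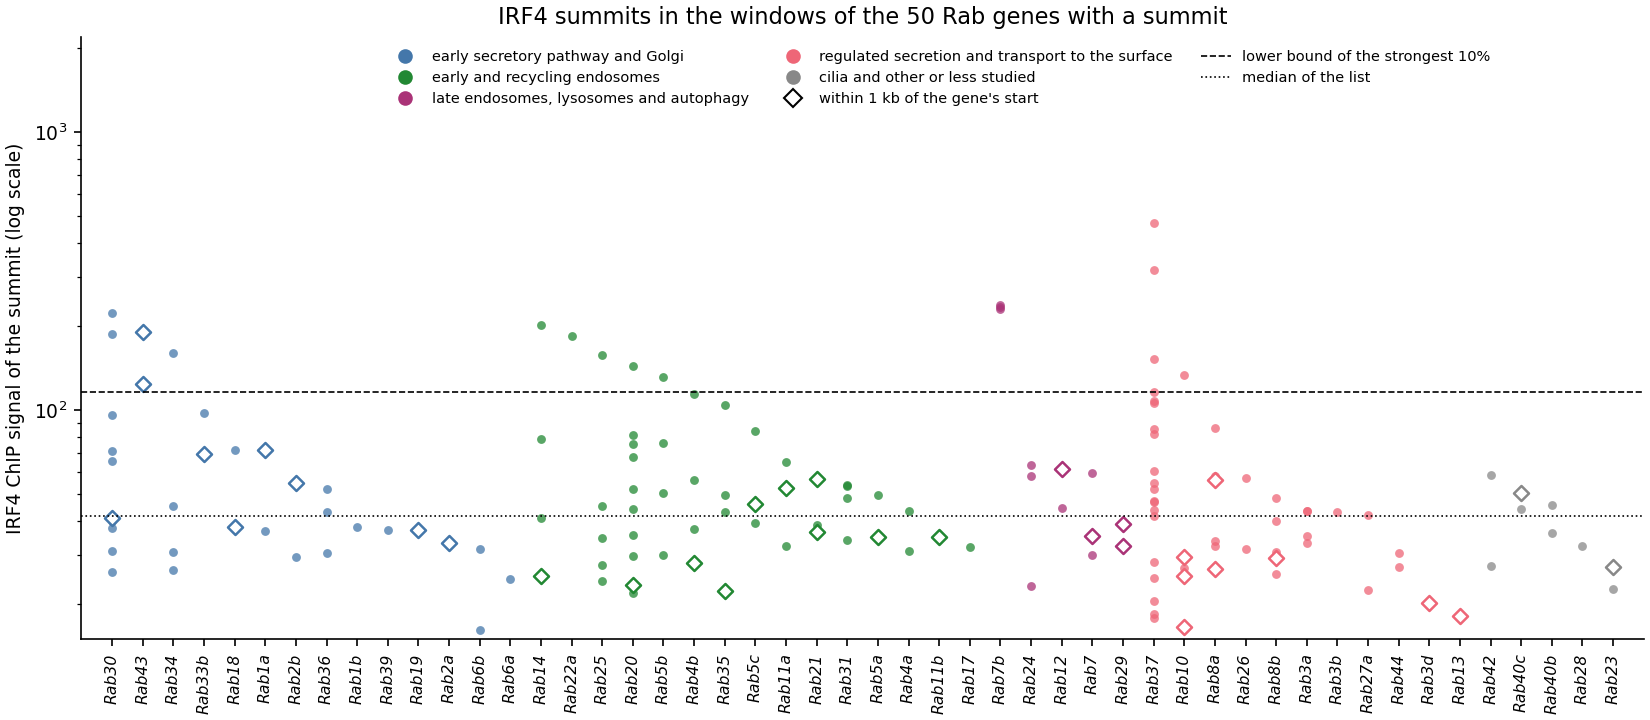
Signal of optimal summits (log axis) in the windows of the 50 Rab genes with at least 1 summit, grouped by role and ordered by strongest summit. Summits of 12.1 or lower fall below the axis and are not shown. Open diamonds lie within 1 kb of a start of the gene, the dashed line is the lower bound of the strongest 10% of the list (116) and the dotted line its median (41.4). Rab37 has both the highest point (468.7) and the longest column (21 summits, of which the one of 7.8 is below the axis).

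Summits of the strongest 10% of the list, with a signal of at least 116, lay in the windows of 11 members (18.6%), against 12.4% of all genes. A summit within 1 kb of a start of the gene was present in 27 members (45.8%), against 35.0% of genes with a known start. Of the 163 summits, 36 (22.1%) lay that close to the member's own start, near the 23.1% found over all pairs of a gene and a summit. They were lower than the rest, with a median signal of 35.0 against 43.4 for the other 127, and over all genes the medians were 37.2 and 41.4. Inside the members' bodies lay 85 summits, and 78 lay in the flanks. The start of another gene was nearer than the member's own for 57 summits, and 26 lay inside another gene's body. A summit in a window is a position, and which gene it acts on was not tested.

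Rab genes of regulated secretion and transport to the surface numbered 13, of which 11 (84.6%, against 62.3% of all genes) held a summit. They had 53 summits, or 4.98 per 100 kb against 2.96 for all genes. Rab37, a Rab known from secretory granules of mast cells, accounted for 21 of the 53, so the density of this role rests in large part on that gene. Its strongest summit had a signal of 468.7 at mm10 chr11:115106671-115106956, in the gene body 15486 bp from the start, with 224 in replicate 1 and 249 in replicate 2. By strongest summit Rab37 was number 3 of the 21631 genes, and 79 genes (0.365%) had as many summits. It ranked number 2 in the relaxed list of replicate 1 and number 3 in that of replicate 2, and it is the strongest summit of any Rab.

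The second summit of Rab37 lay 14041 bp from the start with a signal of 317.8 (136 and 183 in replicates 1 and 2). Another at 40694 bp had 151.9 (69.6 and 82.7), and one at 9085 bp had 116.4 (42.0 and 73.6). All are inside the Rab37 body. The body also contains Cd300lf, which encodes an inhibitory receptor of myeloid cells, and ends next to Slc9a3r1, which encodes a scaffold under the plasma membrane. Of the 21 summits, 8 were nearer to the Rab37 start than to any other, and 5 lay in the body of one of those neighbours. The summit of 151.9 lay in the Cd300lf body 1967 bp from its start, and another of 82.2 (25.3 and 60.1) lay 19 bp from that start. Both strongest summits, in contrast, lay 27175 and 28620 bp from the nearest start of another gene and inside no other body. At 17 of the 21 summits both replicates had a peak, with a median log2 ratio of 0.29 (SD 0.79). The window held 23.0 summits per 100 kb, the most of the family.

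**Figure D4:**
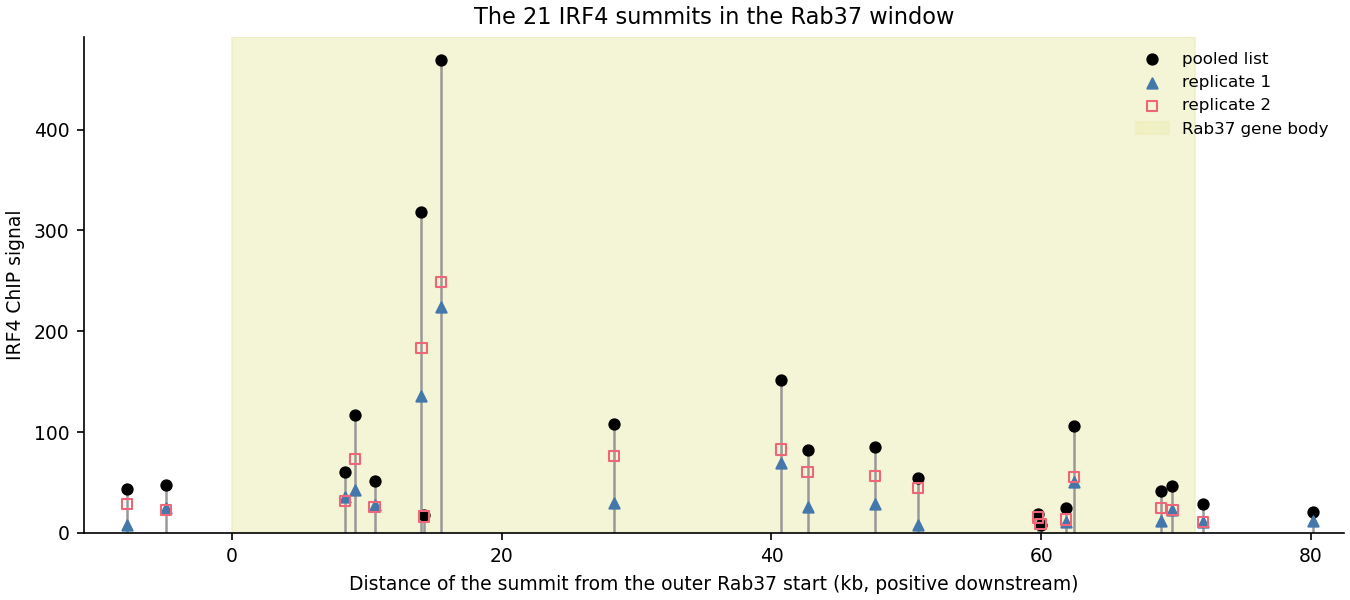
Signal of the 21 summits in the Rab37 window (black), with the signal of replicate 1 (blue triangles) and replicate 2 (red squares) where that replicate had a peak within 100 bp, against distance from the Rab37 start in kb. The shaded span is the gene body, and the pair of tall summits about 14 and 15 kb into it stands well above the rest.

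Rab10, which brings vesicles from the trans-Golgi and from glucose transporter stores to the plasma membrane, had 5 summits. The strongest, 133.8 (48.5 and 83.6), lay 26856 bp into the gene, while 3 weak ones of 16.5 to 29.6 clustered at the start. Rab8a, which acts in export to the surface and in cilium formation, and Rab8b had 6 summits each. Rab8a had its highest, 86.3 (29.8 and 55), in the body and one of 55.8 (22.4 and 30.2) 382 bp upstream of the start, whereas the highest of Rab8b was 48.1 (18.4 and 28.8). A further Rab8a summit of 58.0 lay 65 bp from the start of Hsh2d, an adaptor of lymphocyte signalling, with 10.3 in replicate 1 and 45.9 in replicate 2, which is a wider gap than at most summits.

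The Rab3 genes serve exocytosis in neurons and glands. Rab3a, a short gene, held 4 summits of 33.1 to 43.4, all in its flanks, or 16.7 per 100 kb. Its strongest was 43.4 in the list with 17.7 in replicate 1 and 24.5 in replicate 2. Rab3b held 1 summit of 43.0 and Rab3d a pair at its start of 20.2 and 9.7. Rab27a, which docks lytic granules and exosome-forming endosomes, had 2 summits, the stronger 41.8 (20.8 and 19.6) in its body. Rab26, Rab44 and Rab13 had 2 each, with highest signals of 57.1, 30.5 and 18.2. For Rab13 the lists differed. Its mm9 summit with ETS-IRF letters, of 101.9 on the scale of that list, lay 17581 bp from the start, where the optimal list had no summit. Counted in each replicate alone, the highest Rab13 peak was 17.7 in replicate 1 and 29.4 in replicate 2. Apart from Rab37 and Rab10, no gene with this role had a summit in the strongest 10%.

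Rab genes of early and recycling endosomes numbered 16, of which 15 held 52 summits, or 6.79 per 100 kb, against 62.3% and 2.96 for all genes. In 5 of the 16 (31.2%, against 12.4% of all genes) a summit was in the strongest 10%. Rab20 gave 10 of the 52 summits, and without it the density was 5.83. Their median strongest signal was 84.2. Rab14, which moves cargo between the Golgi and early endosomes, had its strongest summit 2819 bp upstream of the start, with 201.6 in the list, 77.7 in replicate 1 and 126 in replicate 2. A second upstream summit, 8345 bp from the start, had 78.3 (44.6 and 33.4), the order of the replicates reversed. The mm9 window with the shared PU.1 and ETS-IRF run lies at the same distance from the Rab14 start in that build.

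Rab22a, a Rab5 relative of early endosomes, had a single summit, 19590 bp into the gene, of 184.4 (85.5 and 101). It was thus among the strongest of the family. Of the 50 windows with a summit, that of Rab22a was among the emptiest, at 1.60 summits per 100 kb. Its closest relative Rab31 had 4 summits, none above 53.6 (26.8 and 27.2). Rab20, known from maturing phagosomes, had 10 summits, or 22.1 per 100 kb. The strongest, 144.2 (53.5 and 88.4), lay just beyond the 3′ end, and 4 in the body between 14184 and 17526 bp from the start had signals of 51.8 to 81.2. All 10 were nearer to the start of Rab20 than to any other start.

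Rab25, an epithelial relative of Rab11, had 5 summits, or 19 per 100 kb. The strongest was 157.3 (50 and 110) in its body 2918 bp from the start. Replicate 2 was more than 1 log2 unit higher there, above the median offset between the replicates. The 3 upstream summits of 27.7 to 45 were nearer to the starts of Lamtor2 and Ubqln4. At Rab5b, a gene of early endosome fusion, the strongest summit of 131.2 (64.5 and 67.0) lay in the body of Suox and 1663 bp from the start of Ikzf4, an Ikaros family transcription factor. No Rab5b summit was nearer to its own start than to another.

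Rab5c, with the same function, had a summit of 84.2 (34.8 and 49.5) in an intron, the one shown with IRF letters in a row, and 45.8 (16.1 and 28.0) 88 bp upstream of the start. Rab5a had 3 with at most 49.4 (19.1 and 29.4). Rab4b, which takes receptors straight back to the surface, had its strongest, 114.1 (32.6 and 80.7), 486 bp from the start of Egln2, an oxygen-sensing hydroxylase, while its relative Rab4a had no more than 43.4 (14.9 and 30.4). Rab35, a Rab of fast recycling, had 103.9 (49.4 and 54.4) 2011 bp upstream. By rank this peak was number 4238 in the relaxed list of replicate 1 and number 6781 in that of replicate 2.

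Rab11a, the Rab of the recycling endosome, had 52.3 (18 and 38.5) 117 bp from its start and 65.1 (27.7 and 37.7) upstream. Its relative Rab11b had 1 summit of 35.0 (10.5 and 21.3) 198 bp upstream. Rab21, which carries integrins, had 56.5 at a start of the gene, with 38.8 in replicate 2 and no peak of replicate 1 within 100 bp. Rab17 had 1 of 32.1. Rab15 was the only gene of this role with none.

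**Figure D5:**
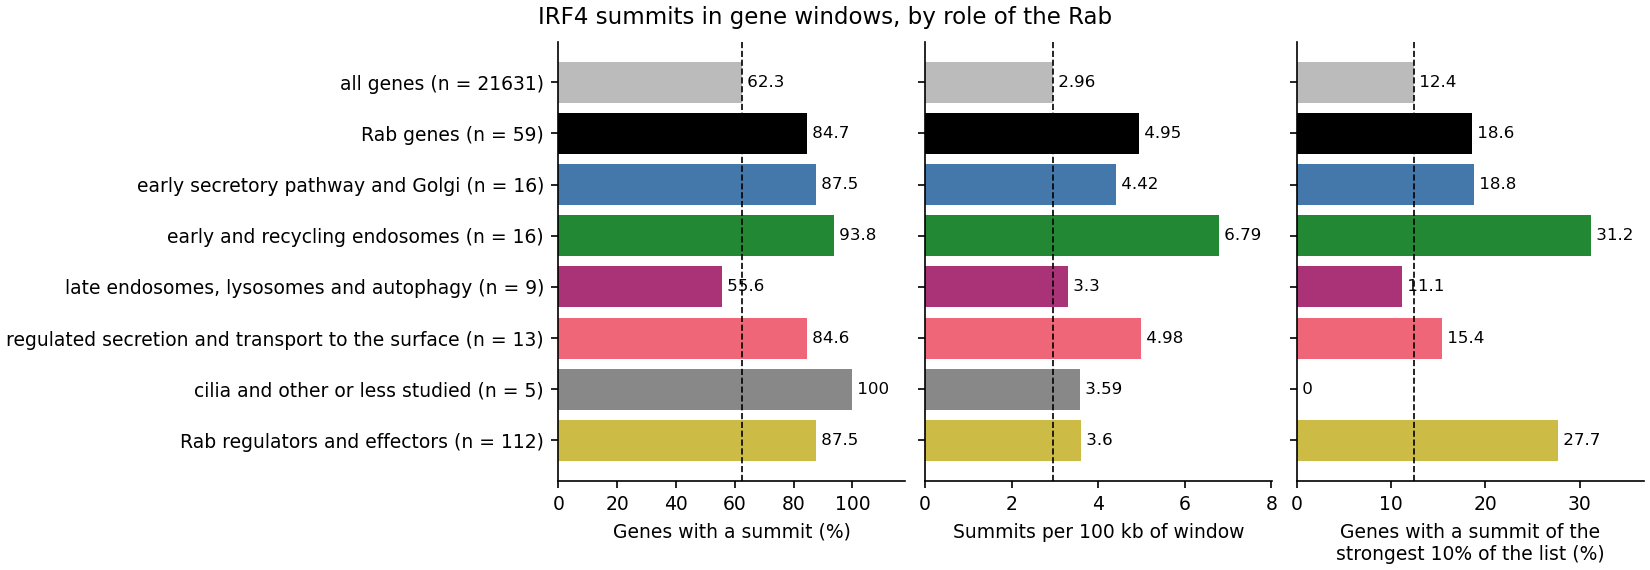
For all genes, all Rab genes, each role of the Rab and the Rab regulators and effectors: percent of genes with a summit in the window (left), summits per 100 kb of window (middle) and percent of genes with a summit of the strongest 10% (right). Dashed lines mark all genes, and numbers in brackets are genes. Density runs from 3.30 for the late endosome Rabs to 6.79 for the early and recycling endosome Rabs, and the groups are small.

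Rab genes of the early secretory pathway and the Golgi numbered 16, of which 14 (87.5%) held 35 summits, or 4.42 per 100 kb, against 62.3% and 2.96 for all genes. Rab30, a Golgi Rab also found on autophagosomes around bacteria, held 11 of the 35. Its strongest had 223.3 (90.1 and 134) at 78959 bp from the start and 187.8 (91.1 and 96.8) at 75790 bp, both in the far part of the body. A weaker one of 40.9 lay 122 bp upstream of the start, where replicate 1 had 22.3 and replicate 2 had no peak within 100 bp of it.

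Rab43, which acts between the endoplasmic reticulum and the Golgi and on phagosomes, had both of its summits within 1 kb of a start. They were 191.1 (87.0 and 112) at 439 bp and 123.9 (63.5 and 65.8) at 978 bp. These starts are internal to the gene, and in the mm9 list the corresponding pair lay in an intron 2846 and 1360 bp from the outer start. Rab43 was the only Rab with a summit of the strongest 10% within 1 kb of a start used here. For 11 members, Rab37, Rab7b and Rab30 among them, only the outer start was available, so internal starts could not count there. Rab34, known from lysosome positioning and from cilia, had 4 summits, or 16.8 per 100 kb, all in its upstream flank and all nearer to another gene. The strongest, 160.0 (65.6 and 94.0), lay 739 bp from the start of Rpl23a, a ribosomal protein gene.

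Rab33b, a Golgi Rab that binds the autophagy protein Atg16l1, had 97.5 (45.5 and 51.3) beyond its 3′ end and 69.5 (28.4 and 44.6) 150 bp from its start. Rab1a, which directs transport from the endoplasmic reticulum to the Golgi, had 71.5 (25.9 and 49.8) 316 bp upstream. Its relative Rab1b had 1 summit of 37.8 (9.83 and 28.5), nearer to Cnih2. Rab2b had 54.6 (19.6 and 36.7) 141 bp upstream, inside the body of Tox4, and Rab2a had 33.1. Rab18, of lipid droplets and the endoplasmic reticulum, had 71.9 (29.2 and 45.8) in its body. The remaining Golgi Rabs with summits (Rab6a, Rab6b, Rab19, Rab36 and Rab39) peaked between 24.6 and 52.1 in the optimal list. Rab6a, the lowest of these there, had a summit of 99.2 in the mm9 list, 225 bp from its start. The signals of that list are not on the same scale.

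Rab genes of late endosomes, lysosomes and autophagy numbered 9, of which 5 (55.6%) held 13 summits, or 3.30 per 100 kb, near the 62.3% and 2.96 of all genes. Rab9 and Rab9b, with none, are on the X, and off the X it was 5 of 7 and 4.05 per 100 kb. Rab7b had by far the highest signals of this role. This relative of Rab7 returns cargo from endosomes to the trans-Golgi, and its 3 summits all ranked in the strongest 2.02% of the list. They had 235.1 (91.3 and 144), 231.0 (99.6 and 131) and 239.3 (106 and 131), in this order along the gene at 10289, 11908 and 13987 bp from the start. The 3 mm9 windows shown above lie at 10279, 11882 and 13977 bp from the start in that build, all in an intron. In the optimal list the trio was thus close in height, from 231.0 to 239.3. In the mm9 list, whose signals are not on the same scale, they had 427.5, 393.3 and 347.7 in the same order along the gene. The letters in the 3 windows differ, and whether they bear on the signal was not tested.

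Rab7, which drives fusion of late endosomes with lysosomes, had 59.3 (23.5 and 35.3) in its body and 35.3 (12.7 and 28.1) at its start. Rab12, linked to degradation of the transferrin receptor, had 61.4 (24.8 and 37.3) upstream of its start, and Rab24, linked to autophagy, had 63.3 (23.0 and 39.6) in a flank. Rab29 had 2 weak summits at its start, the stronger 38.8. The 5 remaining Rabs of cilia or of less studied function (Rab23, Rab28, Rab40b, Rab40c and Rab42) all held a summit, between 27.3 and 58.4 at their highest. Rab40c, an adaptor for a ubiquitin ligase, had 50.3 (23.5 and 23.3) 621 bp upstream. None of these 5 had a summit in the strongest 10%.

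Among 16 families of close relatives, 10 had a summit in every member, and in 5 of these the highest strongest signal was over 2 times the lowest. Side by side, the strongest signals were 239.3 for Rab7b and 59.3 for Rab7, 184.4 for Rab22a and 53.6 for Rab31, and 114.1 for Rab4b and 43.4 for Rab4a. Rab25, Rab11a and Rab11b had 157.3, 65.1 and 35.0. Rab5b, Rab5c and Rab5a had 131.2, 84.2 and 49.4. In the other 5 the copies were nearer: Rab1a had 71.5 and Rab1b 37.8, Rab2b 54.6 and Rab2a 33.1, Rab8a 86.3 and Rab8b 48.1, Rab40c 50.3 and Rab40b 45.3, and Rab6b 31.6 and Rab6a 24.6. The order of the Rab6 pair holds for the optimal list only. Counted in each replicate alone, Rab6a had 37.8 and 39.5 in replicates 1 and 2, above the 15.5 and 20.3 of Rab6b. In 4 families some copies had no summit: Rab3c beside Rab3a, Rab3b and Rab3d, Rab27b beside Rab27a, and the X-linked Rab33a and Rab39b beside Rab33b and Rab39. In the Rab9 pair and the pair of Rab32 and Rab38 no gene had one.

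No summit was listed for 9 members: Rab15, Rab3c, Rab27b, Rab32, Rab38, Rab9, Rab9b, Rab33a and Rab39b. Rab32 and Rab38 act together in melanosomes and other lysosome-related organelles, and Rab9 retrieves mannose 6-phosphate receptors. Long windows were among the empty ones, with 247 kb for Rab3c and 183 kb for Rab27b. In the relaxed lists, which also hold weak peaks and background, the highest peak of Rab27b was 5.89 in replicate 1 and 18.7 in replicate 2, the latter within the 44058 strongest of that list. In the other empty windows no relaxed peak exceeded 10.3 in either replicate, and those of Rab39b and Rab9b held none at all.

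All 4 members on chromosome X were empty, but only 25.9% of the 966 genes of that chromosome held a summit. Off the X, 50 of 55 members (90.9%) held one, against 64.0% of all genes. Chromosome 11 lay at the other end. A summit was present in 5 of 5 members (Rab37, Rab34, Rab1a, Rab5c and Rab40b), against 80.0% of all genes of that chromosome. These members held 33 summits, or 12.9 per 100 kb against 6.22 for all genes there, and Rab37 alone gave 21 of the 33. Off chromosome 11 the family had 4.28 and all genes 2.76, and without Rab37 it had 4.43.

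Promoter sequence was available for 60 starts of Rab genes in the RefSeq table of GRCm38.p6, as 250 bases before and 50 after each start. In 10 of these 60 a summit of the optimal list fell inside, beside 4183 of 21045 promoters of all genes, so by this narrower measure the members were not above all genes. The 150 bases before the start are shown for Rab5c and Rab7, a pair of endosomal Rabs with such a summit, 5′ to 3′ on the minus strand of that build.
Rab5c upstream region, chr11:100738216-100738365: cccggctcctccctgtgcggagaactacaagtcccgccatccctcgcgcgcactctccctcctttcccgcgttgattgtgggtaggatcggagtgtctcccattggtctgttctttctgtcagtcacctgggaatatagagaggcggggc
Rab7 upstream region, chr6:88045271-88045420: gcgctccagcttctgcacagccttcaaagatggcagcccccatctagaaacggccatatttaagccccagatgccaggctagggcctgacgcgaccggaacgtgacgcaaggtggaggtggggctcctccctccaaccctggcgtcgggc

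The Rab5c summit, of 45.8, lay 88 bp before the start and the Rab7 summit, of 35.3, 43 bp before its own, and neither promoter held any of the 12 sequences. Among the 10 promoters with a summit, ETS-IRF letters were found in 1, that of Rab11b, and the PU.1 letters, the E-box and GGAAGTGA in that of Rab2b. Over all 60, ETS-IRF letters were present in 1, against 2.55% of 21045 promoters of the same length, and AP-1 letters in 3 against 4.69%. The E-box was the commonest, in 14 of the 60 and in 15.7% of all.

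Genes that control Rabs were taken as a list of 112, made up of 8 for prenylation and extraction, 32 exchange factors, 35 GTPase-activating proteins and 37 effectors. A summit was present in 98 (87.5%), with 3.60 summits per 100 kb, against 62.3% and 2.96 over all genes. Their windows were longer, with a median of 68.2 kb. Their median strongest signal was 86.1, against 58.3 over all genes and 55.5 for the Rab genes themselves. A summit in the strongest 10% was present in 31 (27.7%), against 12.4% of all genes. By class, 7 of 8, 31 of 32, 29 of 35 and 31 of 37 held a summit, in the order given.

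Tbc1d10a, which encodes a GTPase-activating protein, had the strongest summit among these 112 genes, 445.2 (214 and 231) in its body, close to the height of Rab37. In the same class, Tbc1d16 had 243.3 (108 and 136) and 26 summits, and Rabgap1l had 239.9, where replicate 1 was the higher (131 and 109). Among exchange factors, the DENN domain gene Dennd4b had 344.8 (167 and 178) 122 bp upstream of a start, Sbf2 had 282.1 (121 and 163) and Dennd5b had 236.4 (100 and 137). All of these but Dennd5b were higher than the strongest summit of every Rab gene other than Rab37.

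Among effectors, Myrip, which links Rab27 to myosin motors, had 191.6 (73.9 and 113). Rilpl2 and its neighbour Rilpl1, whose products bind Rabs phosphorylated by Lrrk2, had 171.5 (75.2 and 95.7) and 170.1 (79.4 and 90.4). For prenylation, Rabggta, the alpha subunit of the transferase that adds the lipid, had 156.3 (69.8 and 86.9), the escort protein gene Chm on the X had 110.4 (41 and 69.5), and Rabac1, a membrane receptor for Rabs, had 88.8 (32.6 and 57.0).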

How the data were processed

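IRF4 ChIP-seq peaks of 2 replicates of CH12.LX were used as deposited. The authors, per the deposited file descriptions, made relaxed peak lists per replicate and pooled on mm10, derived the optimal and conservative lists from them, and made the mm9 list from both replicates together. The signal in each deposited list is the authors' value for a peak, on an unstated scale. Caller, aligner and read numbers were not given in the sources at hand. Depth is therefore unknown, and no counting interval was given.

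Members, lists and motifs were chosen with earlier results of these data known. Genes came from RefSeq (GRCm38), and starts were the outer gene end by strand plus the starts of the RefSeq promoter table (GRCm38.p6). Strand came from that table for 48 Rab genes and from the GENCODE gene of the same name or synonym for 11, which have the outer start alone. Promoter sequences are credited to RefSeq. Genome sequence was that of mm9 only, so motifs at summits were read on the mm9 list, and coordinates were never converted between builds.

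Replicate values are those of the nearest summit within 100 bp. Values in full were set by rule for the 10 members with the strongest summit, the 5 with most summits, the 5 with most per 100 kb, those with a summit within 1 kb of a start and a signal at or over the median, and 3 regulators per class; other values were added after they were seen. No test was run. Alternatives changed the window, the list, the signal minimum, the matching and the replicate, and values of a role without Rab20 or off the X were added after the data were seen. The scripts were tested on simulated data. Python 3.11.15, numpy 2.4.6, pandas 2.3.3, scipy 1.17.1, pysam 0.24.0, samtools 1.23.1 and matplotlib 3.10.9 were used.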

Additional observations from a re-analysis of the deposited data

How the results depend on the processing

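The share of Rab genes with a summit (84.7%) was 54.2% for the gene body alone (all genes 41.9%), 61.0% with signals at or over the list's median (44.9%), 66.1% within 10 kb of a start alone (51.7%) and 71.2% on the mm9 list (46.9%). With 1 replicate left out it ran from 74.6% to 84.7%. It stayed above all genes in each of these. Summits per 100 kb (4.95) were 4.02 in gene bodies (2.34 over all genes), 4.04 on the conservative list (2.40), 2.49 with signals at or over the median (1.42) and 4.16 outside other gene bodies (2.44), and ran from 4.95 to 5.04 with 1 replicate left out. Chosen after seeing the data, it was 4.43 without Rab37, 4.28 off chromosome 11 and 5.16 off the X.

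The share of summits within 1 kb of a start (22.1%) fell to 13.4% among signals at or over the median. The share of regulators and effectors with a summit (87.5%) was 75% in gene bodies (all genes 41.9%), 93.8% with 25 kb flanks (70.8%), 74.1% with signals at or over the median (44.9%), 68.8% near starts alone (51.7%) and 73.2% on the mm9 list (46.9%). The median strongest signal (55.5) was 25.7 and 36.0 in single replicates, each on its own scale. The median log2 ratio of the replicates (0.56) ran from 0.50 to 0.59 over the alternatives. The share of member summits with ETS-IRF letters (9.09%) was 7.07% within 25 bp of the summit and 10.1% within 100 bp. The cause of these shifts was not tested, beyond the fewer summits that narrower windows and a signal minimum leave.

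No paired analysis was possible because there is 1 group and no test. With read numbers unknown, an empty window shows only that no summit was listed.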

Other observations

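Summits of Rab genes with another optimal summit within 340 bp were matched in both replicates less often than the rest. Of 24 such summits 7 (29.2%) had a peak of each replicate within 100 bp, against 121 of 139 (87.1%) with no such neighbour, and over the whole list the shares were 47.7% and 90.5%. Several pairs at starts are of this kind. At Rab30, the summits 122 bp upstream and 78 bp downstream of the start had a peak in replicate 1 alone (22.3) and in replicate 2 alone (17.9). At Rab40b, a pair near the start of Wdr45b had 40.1 in replicate 2 alone and 12.6 in replicate 1 alone. Whether each pair is 1 place of binding that the replicates put at different positions was not tested, and the number of summits at such genes depends on it.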
